A study of Rattus norvegicus with 10 samples.

Results

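Compact multi-exon genes were examined in RNA-seq libraries from the cerebral cortex of rat fetuses. A gene was a member if it lay on chromosomes 1 to 20, had a listed exon length of 300 to 800 bases and at least 4 listed exon entries, and spanned less than 20000 bases from its smallest start to its largest end. The rule uses annotation only, and it gave 1489 of the 25185 autosomal features, out of 26404 features listed. The other 23696 autosomal features served for comparison.

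The series holds 10 libraries of oligo-dT-selected RNA from Sprague Dawley rat fetuses at embryonic day 21, made from the right cerebral cortex. In the oxytocin group the dam had received 100 mcg per kg of oxytocin intravenously, and in the saline group an equal volume of saline, 24 h before collection. Each group has 5 pups, each from a different dam, so 1 library stands for 1 pup and 1 litter. No agent other than oxytocin or saline, no batch and no fetal sex is named in the labels used here. The oxytocin libraries held 18723390 to 30404127 counts on listed features, and the saline libraries 18555172 to 20776414.

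A gene is transcribed with its introns, which are spliced out to join the exons into the mature mRNA, and oligo-dT selection keeps the mature molecules by their poly(A) tail. In mammals, genes with a short mature transcript cut into several exons by short introns include many of those for ribosomal proteins, small respiratory chain subunits, spliceosomal Sm proteins and other small proteins that most cells make in quantity. Genes for secreted and tissue-restricted small proteins can have the same layout, so a structural rule gathers genes of different roles. Gene builds can also bridge a shifted reading frame with a gap of a few bases, which adds an exon entry where no intron is spliced.

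The gene table at hand paired 0 of the 26404 identifiers with a symbol, so the members' roles and the marker genes of the tissue could not be read from the files. Members are therefore described by position, as the files give it on Rnor_5.0, by structure and by level. Identifiers are printed for 2 members with higher and 2 with lower values after oxytocin.

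The label "multi-exon" held for most of the members but not for all of them. Entries that overlapped or touched were merged into blocks, and a gap of at least 30 bases between blocks was counted as intron-sized, a limit chosen after the gap lengths had been seen. By this count 1071 members had 3 or more such gaps, 189 had 1 or 2, and 229 had none. At least 1 gap shorter than 30 bases was listed in 473 members. The median member had a listed length of 613 bases, a span of 3198 bases and a median block of 110 bases, and 632 members had exactly 4 entries. Members lay on every autosome, 765 on the plus and 724 on the minus strand, and made up from 4.24% of the features of chromosome 13 to 8.69% of those of chromosome 12.

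Expression was absent or very low for the greater part of the set. No count was found in any library for 477 members, which allows a level of up to 0.0141 CPM (counts per 1000000 counts of a library) over the 213314841 counts of all libraries, by a floor of 3 counts. Another 544 members had counts but did not pass edgeR's filter on low counts, and 468 passed it, or 31.4%, beside 56.7% of the other autosomal features. A count was seen in all 10 libraries for 549 members. None of the 468 passed the filter through 1 group alone, and 431 of them were above its level of 0.507 CPM in all 10 libraries.

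Passing the filter went with intron-sized gaps. It was passed by 434 of the 1071 members with 3 or more of them (40.5%), by 24 of the 189 with 1 or 2 (12.7%) and by 10 of the 229 with none (4.37%). The 10 had a median level of 3.48 RPKM (CPM per kilobase of listed exons), against 4.91 RPKM for the 24 and 20.6 RPKM for the 434. The highest of the 10, on chromosome 15 (90889560 to 90890329, listed length 762 bases), stood at 57.8 CPM on average. Span went the same way up to a point: 19.8% of members spanning less than 2500 bases passed, 36.3% of those from 2500 to 4999, 41.1% from 5000 to 9999 and 41.9% from 10000 upward. Span and gaps overlap as measures. The median span was 614 bases for members with no intron-sized gap, 1019 with 1 or 2 and 4736 with 3 or more. Their parts were not separated.

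**Figure D1:**
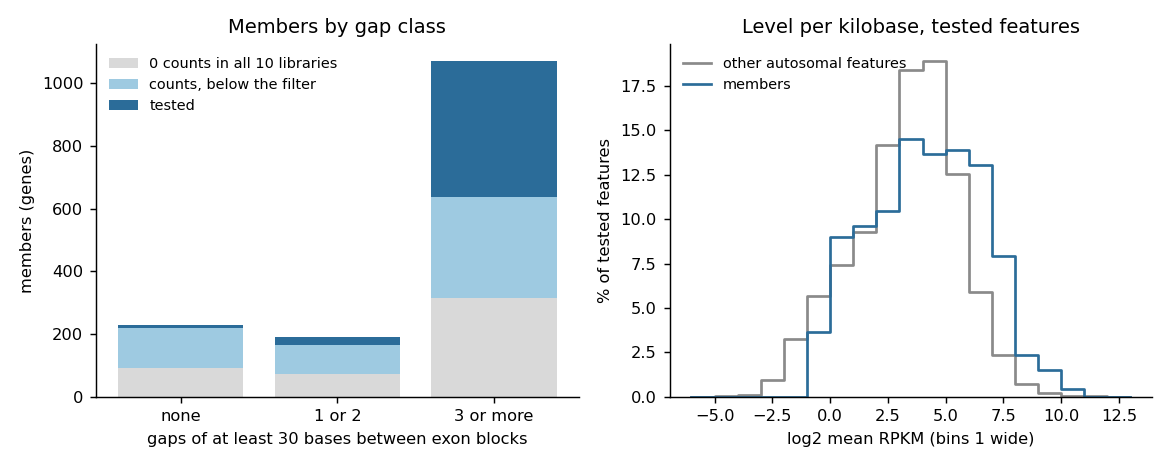
Left, number of members with no, 1 or 2, or 3 or more gaps of at least 30 bases between exon blocks, split into members at 0 counts in all 10 libraries, members with counts that did not pass the filter, and members tested. Right, share of tested features (%) in bins of log2 mean RPKM for the 468 members and the 13429 other autosomal features; a larger share of the members lies at 100 RPKM or above (15.6%, beside 4.94% of the others), while the highest single values are those of others.

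Per length, tested members reached high levels more often than other tested features. Their median was 18.7 RPKM (quartiles 4.79 and 64.8), against 11.3 RPKM (3.57 and 28.3) for the 13429 other autosomal features tested. A level of at least 100 RPKM was found for 73 members (15.6%) and for 664 of the others (4.94%). In CPM the order was reversed, with medians of 11.4 for members and 23.8 for the others. Median listed length was 613 bases over all members and 1505.5 bases over all other autosomal features, tested or not. The rule fixed the length and the filter acts on counts, so a short gene needs more RPKM to pass, and the comparison is a description.

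Values just inside and just outside the limits of the rule were as follows. Members of 751 to 800 bases passed the filter in 33.8% of cases, with a median of 12.0 CPM, and features of 801 to 850 bases that met the other limits passed in 37.2%, with 8.85 CPM. The 632 members with 4 entries passed in 183 cases and the 860 features with 3 entries in 189, with medians of 11.2 and 10.5 CPM. Spans of 15000 to 19999 bases gave 28 of 78 and spans of 20000 to 24999 bases 30 of 60, with 7.02 and 7.30 CPM. Below the lower length limit, 23 features of 250 to 299 bases passed in 39.1%, against 30.8% of the 39 members of 300 to 349 bases.

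All members together took less than 2% of the counts, and the saline libraries spread further apart than the oxytocin libraries. The share was 1.79%, 1.80%, 1.75%, 1.80% and 1.74% in oxytocin replicates 1 to 5. In saline replicates 1 to 5 it was 1.78%, 1.86%, 1.66%, 1.63% and 1.82%. The highest and the 2 lowest libraries were all saline, and every oxytocin library lay inside the saline range. The means were 1.78% ± 0.029 and 1.75% ± 0.098 (SD, n = 5 each), a difference of 0.029 percentage points, within the spread of the saline libraries. The Wilson 95% interval of a library reached no further than 0.0061 percentage points from its share, and covers counting error only.

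That difference rested on single libraries and on 1 gene. It was 0.0069 percentage points without saline replicate 3 and -0.00085 without saline replicate 4, and 0.055 without saline replicate 2. Without the most counted member it was 0.00066 percentage points, the oxytocin libraries averaging 1.68% ± 0.024 and the saline libraries 1.67% ± 0.11 (SD, n = 5 per group). Without the 10 most counted members it was -0.0078 percentage points. The 10 most counted members held 0.473% of all counts on average and the 50 most counted 1.04%, out of 1.76% for the set.

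**Figure D2:**
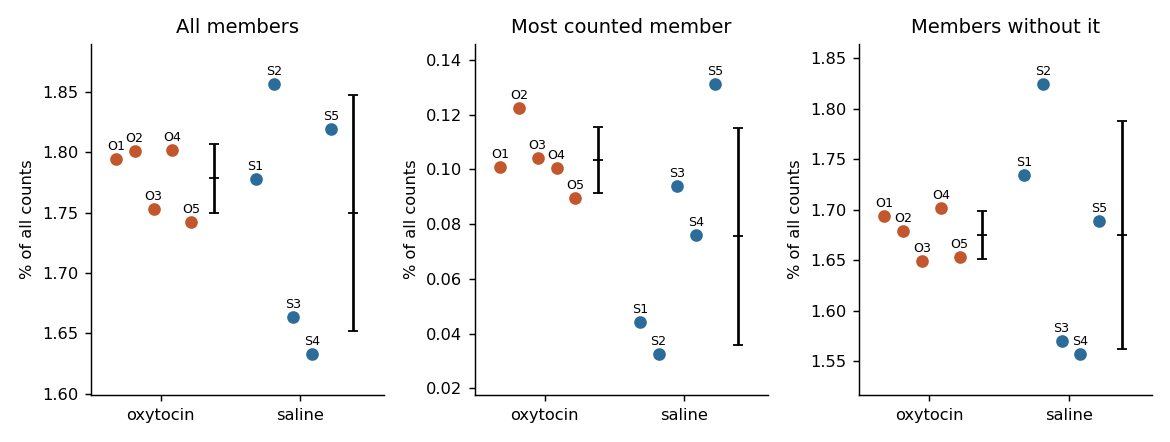
Share of all counts (%) in each library on all members (left), on the most counted member (middle) and on the members without it (right); points are libraries (O1 to O5 oxytocin, S1 to S5 saline) and bars are mean ± SD of 5, on axes that do not start at 0. Saline replicates 1 and 2 are lowest for the most counted member and highest for the rest, and the groups overlap in each panel.

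The most counted member lay on chromosome 18 (15307563 to 15314777, minus strand), with 4 exon blocks, a listed length of 701 bases and a mean of 1276 RPKM. Its level was 1008, 1224, 1041, 1004 and 895 CPM in oxytocin replicates 1 to 5. In saline replicates 1 to 5 it was 443, 324, 939, 760 and 1311 CPM. Saline replicates 1 and 2 stood below every other library, while saline replicate 5 was the highest of all, so the groups overlapped. The extremes differed 4.05-fold, with 6727 to 30644 counts per library. By edgeR's quasi-likelihood test with Benjamini-Hochberg adjustment, its log2 fold change of oxytocin against saline was 0.48 ± 0.29 (SE; adjusted p = 0.9997). That value ran from 0.28 without saline replicate 2 to 0.77 without saline replicate 5.

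The next 9 members by level varied far less from fetus to fetus. They lay on chromosomes 1, 2, 3, 4, 16, 19 and 20 with mean levels from 435 to 1026 RPKM, and the highest and lowest libraries of a gene differed at most 1.51-fold. The second, on chromosome 16 (20150821 to 20152827, 5 blocks), stood at 584, 654, 648, 655 and 621 CPM in oxytocin replicates 1 to 5 and at 601, 734, 565, 493 and 633 CPM in saline replicates 1 to 5. The third, on chromosome 2 (113735166 to 113738835, 4 blocks), stood at 505, 518, 487, 529 and 517 CPM after oxytocin and at 519, 532, 455, 427 and 508 CPM after saline. In these CPM the same saline libraries were extreme in both, replicate 2 at the top and replicates 3 and 4 at the bottom. With edgeR's TMM scaling between libraries, the third was highest in oxytocin replicate 4 (log2 CPM 9.06, against 9.02 in saline replicate 2).

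The fourth lay on chromosome 16 as well (20524449 to 20526604), with 402 to 608 CPM over the 10 libraries. The fifth, on chromosome 4 (165645783 to 165646842), had 5 entries that merge into 3 blocks and stood at 476 CPM on average. In unscaled CPM, 7 of the 10 most counted members were highest in saline replicate 2. In saline replicate 3 or 4, 9 were lowest, the exception being the chromosome 18 gene. With TMM scaling the third was highest in oxytocin replicate 4 instead. The fifth was then highest in oxytocin replicate 3 (log2 CPM 8.97, against 8.94 in saline replicate 2). Log2 fold changes of the 9 below the first ran from -0.0015 to 0.094, with an adjusted p of 0.9997 for each by edgeR.

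This joint movement between fetuses extended over the abundant members. For each gene the log2 CPM of a library was set against the gene's mean over the 10 libraries. The median of these deviations over the 50 most counted members was 0.013, 0.036, -0.020, 0.064 and 0.022 in oxytocin replicates 1 to 5. In saline replicates 1 to 5 it was 0.055, 0.10, -0.11, -0.11 and -0.018. Above their own mean were 43 of the 50 in saline replicate 2 and 44 in oxytocin replicate 4. In saline replicates 3 and 4 only 5 and 7 of them were.

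Other autosomal features of similar CPM did not move this way as a whole. The 2525 others with a mean CPM within the range of the 50 had medians from -0.020 to 0.023 over the 10 libraries. Above their own mean were 1061 of the 2525 in saline replicate 2 and 1238 in oxytocin replicate 4. In saline replicates 3 and 4, 1419 and 1286 of them were. Set against these others, the 50 members deviated by 0.121 in saline replicate 2 and 0.065 in oxytocin replicate 4. They deviated by -0.119 in saline replicate 3 and -0.115 in saline replicate 4. No scaling factor between libraries can move these values. The range over libraries was 0.17 for the 184 members above 20 CPM, 0.097 for the 123 at 5 to 20 CPM and 0.10 for the 161 under 5 CPM.

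Other short features had deviations of the same sign in these saline libraries. Among others above 20 CPM, the 166 features of up to 800 bases had median deviations of 0.075 in saline replicate 2, -0.067 in replicate 3 and -0.072 in replicate 4. The 1431 features of 801 to 1600 bases had 0.031, -0.022 and -0.033 in the same libraries. The 2515 features longer than 3200 bases had the opposite signs, with -0.030, 0.039 and 0.028. Features of 300 to 800 bases with 2 or 3 entries (105 of them) had 0.079, -0.091 and -0.072, and the members above 20 CPM had 0.082, -0.078 and -0.089. The 21 features of that length with 1 entry had 0.091, -0.020 and -0.106. In oxytocin replicate 1 the 105 features stood at 0.070 and the members at 0.018. Whether the members and the other short features differ was not tested.

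Saline replicates 2, 3 and 4 held 20776414, 19736687 and 18700052 counts. The deepest library, oxytocin replicate 1, had a deviation of 0.013 for the 50 members, and in that library the 166 short others had 0.053 and the 2515 longest -0.040. The part of transcript length and of depth in the movement was not tested. In whole cortex, fewer cells of a type and less RNA per cell cannot be told apart.

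**Figure D3:**
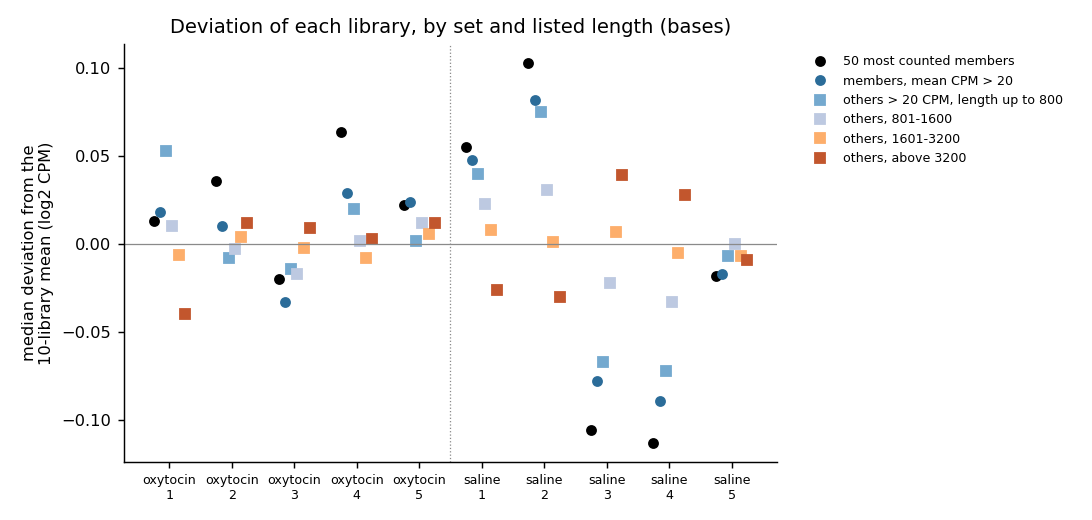
Median deviation of each library from the 10-library mean (log2 CPM) for the 50 most counted members, for members above 20 CPM, and for other autosomal features above 20 CPM in 4 classes of listed length (bases). In saline replicate 2 the short sets lie above 0 and the longest class below, and in saline replicates 3 and 4 the order is turned.

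Oxytocin against saline gave no member past the threshold. With edgeR's quasi-likelihood test on all 14400 features that passed the filter, 0 of the 468 members had an adjusted p under 0.05, beside 0% of all features. DESeq2 gave 0 of the 122 members to which it assigned an adjusted p, while it called 7 of 5575 features in all (0.126%). At an unadjusted p under 0.05 DESeq2 had 9 of 1012 members (0.889%), beside 2.46% of all features. Limma's voom with quality weights called 0 of 468 members and 0% of all features, and had 20 members at an unadjusted p under 0.05 (4.27%), beside 4.28% of all features.

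At an unadjusted p under 0.05 there were 10 members (2.14%), where 3.57% of all features tested reached that level in edgeR's test. Of the 10, 3 had higher values after oxytocin and 7 lower, beside 1.93% and 1.64% of all features. The groups did not overlap for 3 members, all with lower values after oxytocin (0.641%), where the share over all features was 0.701%, with 0.326% lower and 0.375% higher. With all 10 libraries and TMM scaling, the members' shares in both directions together were near or below these background shares, while the 0.641% without overlap and lower, 3 members, lay above the 0.326%. That direction did not hold with each library left out: 3 of 7 were higher without oxytocin replicate 5 and 3 of 7 without saline replicate 1.

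These counts moved with single libraries. Without saline replicate 2, 26 of 472 members (5.51%) were at an unadjusted p under 0.05 in edgeR's test, above the 3.12% of all features, and 19 of the 26 were higher, where 1.76% of all features were. Without saline replicate 1 there were 18 (3.82%), beside 4.51% of all features. Without saline replicate 5 there were also 18 (3.82%), beside 5.81% of all features. Scaling by library size alone gave 15 (3.21%), beside 4.58% of all features, and 2 of the 15 were higher, where 1.16% of all features were.

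The shift of the set as a whole was close to 0. The median log2 fold change of the 468 was 0.0056, with quartiles of -0.064 and 0.066, and that of all 14400 features was -0.0031. Of the 468, 243 had a value above 0 (51.9%), beside 48.2% of all features. Within 0.1 of 0 on the log2 scale lay 310 of the 468 members and 10437 of all 14400 features. In size, 3 members exceeded 0.5, at mean levels from 0.640 to 1.10 CPM, beside 154 of the 14400 features. With library size as the only scaling, 42.7% of the members were above 0, beside 34.8% of all features.

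Against other autosomal features of similar mean CPM, in 10 equal bins, the members' median differed by -0.0037 on average, which is small beside the spread of 0.040 between libraries of a group. The difference was -0.025 and -0.044 in the 2 lowest bins, which hold 84 and 65 members between 0.425 and 4.26 CPM. It was 0.023, 0.034 and 0.037 in the 3 highest bins, with 30, 29 and 25 members. The bins match level but not length. In these 3 bins median listed lengths were 694, 674 and 667 bases for members and 2657, 2867 and 3304 bases for the others. Biological coefficients of variation, the fitted spread between fetuses, were alike at low levels, with medians of 0.19 for members and others in the lowest bin. In the highest bin the median was 0.077 for members and 0.064 for the others.

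Most abundant members had small positive values, in a number that moved with single libraries. Above 100 CPM, 34 of 42 members had a log2 fold change above 0, with a median of 0.043, while 55.2% of the 2249 other autosomal features at that level did, with a median of 0.0065. None of the 42 reached an unadjusted p under 0.05 in edgeR's test, beside 2.85% of these 2249, a share at which 0 of 42 says little. Without saline replicate 3 the count was 25 of 42 and the median 0.010, beside 59.2% and 0.011 for the others. Without saline replicate 4 it was 29 of 42 with 0.017, beside 57.2% and 0.0077. Without oxytocin replicate 4 it was 30 of 42 with 0.035, beside 56.8% and 0.0069. Without saline replicate 2 it was 37 of 42 with 0.071, beside 52.6% and 0.0030. Over the other 6 libraries left out in turn, the count was 33 to 37 of 42. Scaling by library size alone gave 26 of 42 with a median of 0.016, beside 33.8% and -0.020 for the others. The 2249 others were not matched for length. Above 20 CPM, median library deviations averaged 0.021 higher after oxytocin than after saline for the 184 members. For the 166 others of up to 800 bases this difference was 0.017. It was 0.022 for the 105 others of 300 to 800 bases with 2 or 3 entries. It was -0.00041 for the 21 with 1 entry and -0.0011 for the 2515 longest others. Whether the positive values are particular to the members was not tested.

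**Figure D4:**
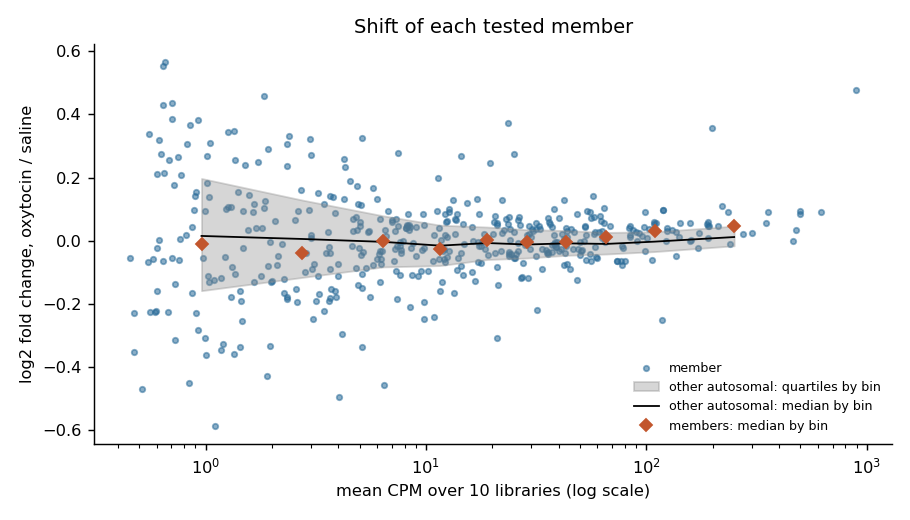
Log2 fold change of oxytocin against saline for each of the 468 tested members (points) by mean CPM on a log axis, with the quartiles (grey band) and median (line) of other autosomal features in 10 bins and the members' median in each bin (diamonds). The diamonds stay within 0.05 of 0, and single points spread more widely at low CPM.

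By structure, the 434 members with 3 or more intron-sized gaps had a median of 0.0046, and the 24 with 1 or 2 had 0.037. The 10 with none had -0.14, with 7 of 10 below 0, beside 7456 of all 14400 features, at a median level of 1.95 CPM. Single other autosomal features at 1.68 to 4.26 CPM had quartiles of -0.12 and 0.13. By length, medians ran from -0.0067 at 600 to 699 bases to 0.042 at 300 to 399 bases, the latter over 33 members. Exons of 22 tested members overlapped those of another listed feature, and because the handling of strand in the counting is not given in the sources used here, their counts may include or lack reads of the neighbour.

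The member with the smallest p among those with lower values was ENSRNOG00000010316 (chromosome 4, 228076684 to 228084406, minus strand), with 5 exon blocks and a listed length of 630 bases. Its level was 7.89, 8.57, 7.92, 6.77 and 7.80 CPM in oxytocin replicates 1 to 5. In saline replicates 1 to 5 it was 9.09, 9.10, 9.58, 9.14 and 9.05 CPM. All oxytocin libraries lay below all saline libraries, and the saline values were close to each other. On 133 to 240 counts per library, the log2 fold change was -0.21 ± 0.078 (SE; edgeR adjusted p = 0.9997).

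Next came ENSRNOG00000048406 (chromosome 5, 154159835 to 154173989, minus strand), which has 9 exon blocks within 744 listed bases. It stood at 17.0, 19.8, 18.6, 17.1 and 20.8 CPM in oxytocin replicates 1 to 5 and at 18.7, 21.4, 24.5, 22.4 and 30.7 CPM in saline replicates 1 to 5. Saline replicate 5 was the highest library and saline replicate 1 lay among the oxytocin values, so the groups overlapped. Its log2 fold change was -0.31 ± 0.11 (SE; edgeR adjusted p = 0.9997), and -0.20 without saline replicate 5.

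Among members with higher values after oxytocin, ENSRNOG00000020118 had the smallest p (chromosome 18, 27071255 to 27087561, minus strand, 5 blocks, 636 bases). Its level was 2.43, 2.21, 2.21, 2.04 and 1.66 CPM after oxytocin and 1.52, 1.49, 1.87, 1.87 and 1.08 CPM after saline, in order of replicate. Only oxytocin replicate 5 fell within the saline range. The log2 fold change of 0.46 ± 0.18 (SE; edgeR adjusted p = 0.9997) rests on 20 to 74 counts per library.

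The second was ENSRNOG00000043192 (chromosome 17, 82918314 to 82932322, minus strand, 6 blocks, 706 bases). It had 3.03, 2.69, 2.43, 2.39 and 2.67 CPM in oxytocin replicates 1 to 5 and 2.44, 2.02, 1.98, 2.46 and 1.83 CPM in saline replicates 1 to 5. Oxytocin replicates 3 and 4 were within the saline range. With 34 to 92 counts per library, its log2 fold change was 0.33 ± 0.14 (SE; edgeR adjusted p = 0.9997).

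**Figure D5:**
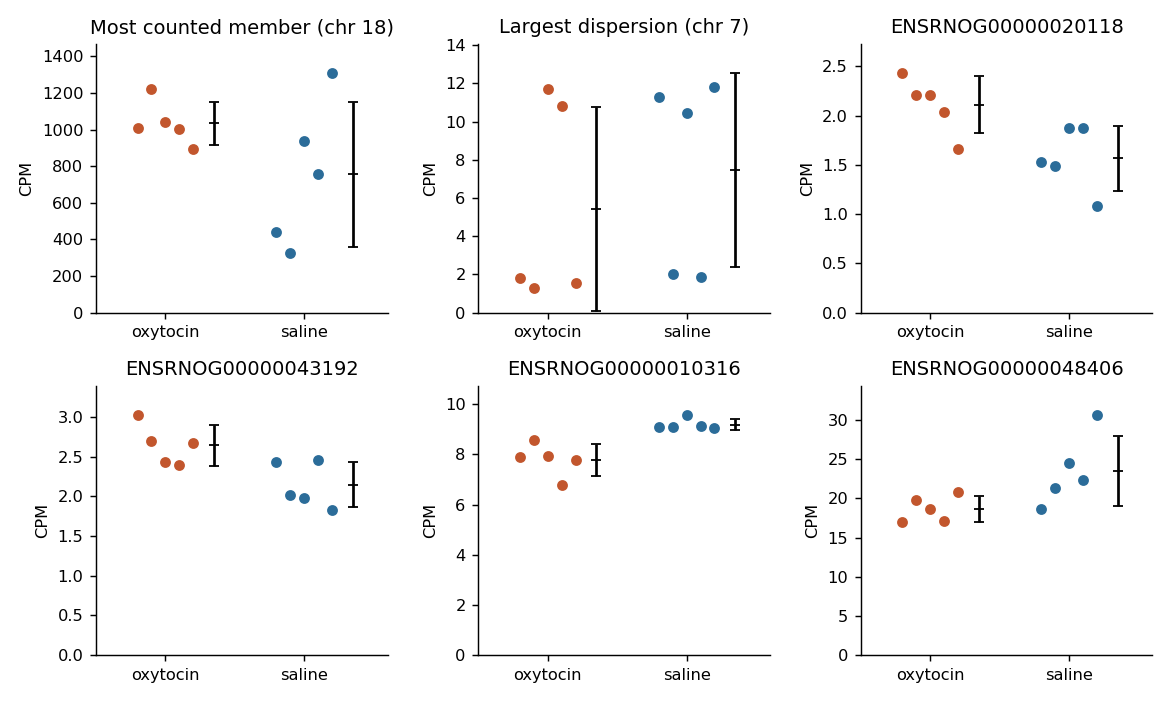
CPM in each library for the most counted member, the member with the largest dispersion, and the 2 members with the smallest p in each direction; points are libraries and bars are mean ± SD of 5 per group, with axes from 0. The chromosome 7 member falls at 2 separate levels in both groups, and for ENSRNOG00000010316 alone of the 6 the groups do not overlap.

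The members that varied most between fetuses did so in both groups. The largest fitted dispersion belonged to a gene on chromosome 7 (73381072 to 73383965, minus strand, 5 blocks, 464 bases). It stood at 1.81, 1.29, 11.7, 10.8 and 1.55 CPM in oxytocin replicates 1 to 5 and at 11.3, 2.02, 10.4, 1.87 and 11.8 CPM in saline replicates 1 to 5. Its values fell at 2 levels, from 1.29 to 2.02 CPM in 5 libraries and from 10.4 to 11.8 CPM in the other 5, a range of 9.17-fold on 29 to 260 counts. Oxytocin against saline gave a log2 fold change of -0.46 ± 0.67 (SE; edgeR adjusted p = 0.9997), which ran from -0.96 without oxytocin replicate 3 to -0.20 without oxytocin replicate 2.

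The second by dispersion, on chromosome 1 (283399380 to 283411892, minus strand, 4 blocks, 450 bases), had 6.97, 3.26, 2.16, 2.75 and 1.07 CPM after oxytocin and 7.36, 1.20, 2.08, 11.6 and 1.72 CPM after saline. It stood at 3.26 CPM or below in 7 libraries and at 6.97 CPM or above in 3, which came from both groups, on 20 to 216 counts per library. Its log2 fold change of -0.49 ± 0.59 (SE; edgeR adjusted p = 0.9997) became 0.13 without saline replicate 4. The third, also on chromosome 1 (225520966 to 225525829, minus strand), had 3.39, 0.885, 1.58, 1.48 and 2.30 CPM after oxytocin and 3.45, 1.01, 1.06, 1.02 and 2.53 CPM after saline. The groups overlapped over nearly the whole range, and the log2 fold change was 0.13 ± 0.41 (SE; edgeR adjusted p = 0.9997). It ran from -0.21 without oxytocin replicate 1 to 0.50 without saline replicate 1, and was also below 0 without saline replicate 2, 3 or 4.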

How the data were processed

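Per the submitters' processing notes, bcl2fastq, STAR 2.0.4b, Subread, featureCounts 1.45 and build Rnor_5.0 were used; settings for strand and multiply mapped reads are not given in the sources used here, so genes with near-identical copies are uncertain. The authors deposited 1 file per library with raw counts per gene, CPM (counts per 1000000 counts on listed features) and RPKM (CPM divided by listed length in kilobases), and both were recomputed from the counts of all 26404 features without difference beyond rounding. Listed length equals the union of the exon entries. Counts were filtered with filterByExpr, scaled by TMM and fitted for all 14400 features with edgeR 4.0.16 (glmQLFit, glmQLFTest, R 4.3.3), oxytocin against saline, 5 libraries each, no covariates, Benjamini-Hochberg over all features, threshold 0.05. SE is the log2 fold change over the square root of F. Log2 CPM use a prior count of 2. DESeq2 1.42.0, limma 3.58.1, other scalings, filters, rule limits and leaving out each library were alternatives, and the tests were tried on simulated data.

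The members, lists and tests were chosen with earlier results of these data known. Over the members there is therefore no test of the set, only counts and medians beside those of all features. Named genes are the 10 members with the highest mean CPM, the 5 with the smallest p in each direction and the 3 with the largest dispersion; without symbols, 2 identifiers per direction are printed and others by position. The planned lists by function and cell type could not be applied. 1 feature is not reported here. Same-group libraries differed by a chi-square of 4.14 to 19.2 per degree of freedom over 20 pairs, so each counts as 1 replicate.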

Additional observations from a re-analysis of the deposited data

How the results depend on the processing

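No member passed an adjusted p of 0.05 under any of the 7 alternative fits with all libraries or the 10 that left out 1 library. The number at an unadjusted p under 0.05, 10 as reported, was 24 of 1012 members with no filter beyond 1 count (2.37%, beside 3.59% of all features), 20 of 468 with limma's voom with quality weights (4.27%, beside 4.28%), 19 of 790 with lengths of 300 to 1000 bases (2.41%) and 6 of 378 with spans below 10000 bases (1.59%), both beside 3.57%, and ran from 9 to 26 (1.92% to 5.51%) without each library in turn, where all features ran from 2.90% to 5.81%; where the number tested was the same, the cause was not tested. The number without overlap between groups, 3 as reported, was 5 with scaling by library size alone (1.07%, beside 0.903% of all features) and 4 to 7 without each library (0.849% to 1.49%, beside 1.16% to 2.07%), where a group of 4 separates more readily for any feature. The median log2 fold change, its difference from features of similar CPM and the share of counts moved by less than the spread between libraries under each alternative run for them. Leaving out a library gave -0.010 to 0.025 for the median, -0.014 to 0.019 for that difference and -0.00085 to 0.055 percentage points for the share. Signs turned with library-size scaling for the chromosome 19 (-0.0026) and chromosome 3 (-0.0065) genes among the 10 most counted members. Without each library the chromosome 4 gene of these 10 ran from -0.0091 to 0.057, that of chromosome 20 from -0.053 to 0.045, of chromosome 19 from -0.0038 to 0.054 and of chromosome 3 from -0.022 to 0.065, and the 2 chromosome 1 members of large dispersion from -1.01 to 0.13 and from -0.21 to 0.50. The limit on gaps and leaving out the most counted member were chosen after seeing the data. No paired analysis was possible because the labels give no replicate numbers: those used here follow accession order within a group and tie no library to one of the other group. Depth limits members near 1 CPM, which rest on few counts per library.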

Other observations

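Some members had counts in some fetuses and none in others. At least 10 counts in 1 library and 0 in another were found for 12 of the 1489 members (0.806%) and for 133 of the other autosomal features (0.561%). The clearest was on chromosome 10 (95377290 to 95392627, listed length 663 bases, 4 intron-sized gaps). It had 1, 1, 1, 17 and 0 counts in oxytocin replicates 1 to 5 and 0, 15, 18, 0 and 1 counts in saline replicates 1 to 5, so 3 libraries of both groups stood apart from the other 7. On chromosome 12 (4899971 to 4900751, no intron-sized gap) the counts were 2, 7, 0, 13 and 0 after oxytocin and 0, 0, 0, 5 and 8 after saline. Both were chosen after their values were seen.

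Some members were neighbours. There were 30 runs of 3 or more members that followed each other in order of start with no other listed feature between, holding 110 members, of which 64 had 0 counts in every library and 10 were tested. Of all 1489 members, 477 had 0 counts in every library and 468 were tested, and runs of other features were not examined. The longest run, 8 members on chromosome 3 (2916811 to 8602475), had 7 at 0. A run of 5 on chromosome 3 (167197728 to 167256308) had counts for all 5, with 2 tested and a highest mean of 7.42 CPM.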
